A study of Mus musculus with 6 samples.

Results

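Receptor tyrosine kinases are cell surface proteins that bind a growth factor outside the cell and phosphorylate themselves and their partners inside it. The gene group described here holds 9 of them (Kit, Met, Erbb3, Erbb2, Egfr, Axl, Fgfr1, Ddr1 and Ret) and Kitl, which encodes the ligand of KIT. Its members were taken by symbol from the array table, through probe sets with exactly 1 gene symbol, and the brightest probe set was read where a gene had several. All 10 were found, 9 with 1 probe set and Ddr1 with 2, among 22180 genes in all.

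The data are 6 arrays of immortal mouse melanocytes, 3 for each of 2 cell lines. The heterozygous line, melan-Ink4a-Arf-1; Sox10LacZ/+, carries 1 Sox10 allele with a LacZ insertion and came from mice of 3 days of age that lack Ink4a-Arf. The control line, melan-Ink4a-Arf-1, was described as syngeneic, is also called melan-a in the labels and carries the Cdkn2a tm1RDp allele on both chromosomes, so both lines are labelled as lacking Ink4a-Arf. For the mice behind the control line the sources used here give no age. Both came from stock backcrossed to C57BL/6J. Both lines were grown at 10% CO2 with 10% fetal bovine serum, 200 nM of the phorbol ester 12-O-tetradecanoylphorbol 13-acetate and 200 pM cholera toxin. A phorbol ester activates protein kinase C, and cholera toxin raises cyclic AMP. Since there is 1 line of each genotype, effects of the genotype and of the line cannot be told apart. Nothing says whether replicates were separate cultures, so p-values speak to the spread among these arrays alone, which may be technical.

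Melanocytes depend on signals of this kind. KIT and its ligand are needed for melanocyte precursors to survive and migrate, and loss of either gives white spotting in mice. MET, the receptor for hepatocyte growth factor, and the ERBB receptors, which answer to neuregulins and the epidermal growth factor family, also act in neural crest derivatives, and ERBB3 signals mainly with ERBB2 as its partner.

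Array medians lay between 5.72 and 5.78 on the log2 scale. Genes at least 2-fold away from the mean of the other arrays of the line numbered 2, 2 and 0 for heterozygous replicates 1 to 3, against 22, 261 and 54 for control replicates 1 to 3, so control replicate 2 stood apart. Sox10 had 9.70, 9.70 and 9.79 in heterozygous replicates 1 to 3, against 9.98, 9.80 and 9.95 in control replicates 1 to 3. Its log2 difference of −0.18 (SE 0.08) did not pass (adjusted p 0.213). The sources used here do not say which part of the transcript its probe set covers. Log2 differences of 6.25 for Xist and of −4.18 for the Y-linked gene Kdm5d show that the lines also differ in their sex chromosomes, and this cannot be told apart from genotype. Cdkn2a, the gene of the Ink4a-Arf locus, averaged 7.07 ± 0.08 in the heterozygous and 7.16 ± 0.12 in the control line (SD, n = 3 each), above background in both although both are labelled null. The position of its probe set relative to the deletion is not known here either, so its level does not check that label. All 10 melanocyte markers, Tyrp1, Dct, Pmel and Gpnmb among them, lay above background in the heterozygous line, and all but Trpm1 did in the control line. The background level of 5.67 is the 95th percentile of the mean signal of 1394 olfactory and vomeronasal receptor genes.

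Between the lines 5 of the 10 genes differed, and Kit and its ligand gene did so in opposite directions. Kit, Fgfr1 and Met rose in the heterozygous line, Kitl and Erbb3 fell, and Erbb2, Egfr, Axl, Ddr1 and Ret did not pass. The threshold was 0.05 on limma's p after Benjamini-Hochberg adjustment across the 22180 genes. The 5 were 3 higher and 2 lower, where 13.4% of all genes passed, 7.46% higher and 5.92% lower. Of the 5, Kit, Kitl and Fgfr1 differed at least 2-fold, which 3.53% of all genes did along with passing. For 7 members the arrays of one line were all above those of the other, as they were for 31.6% of all genes. These shares cover all genes, dim ones included, while 9 of the 10 members lay above background in at least 1 line.

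**Figure D1:**
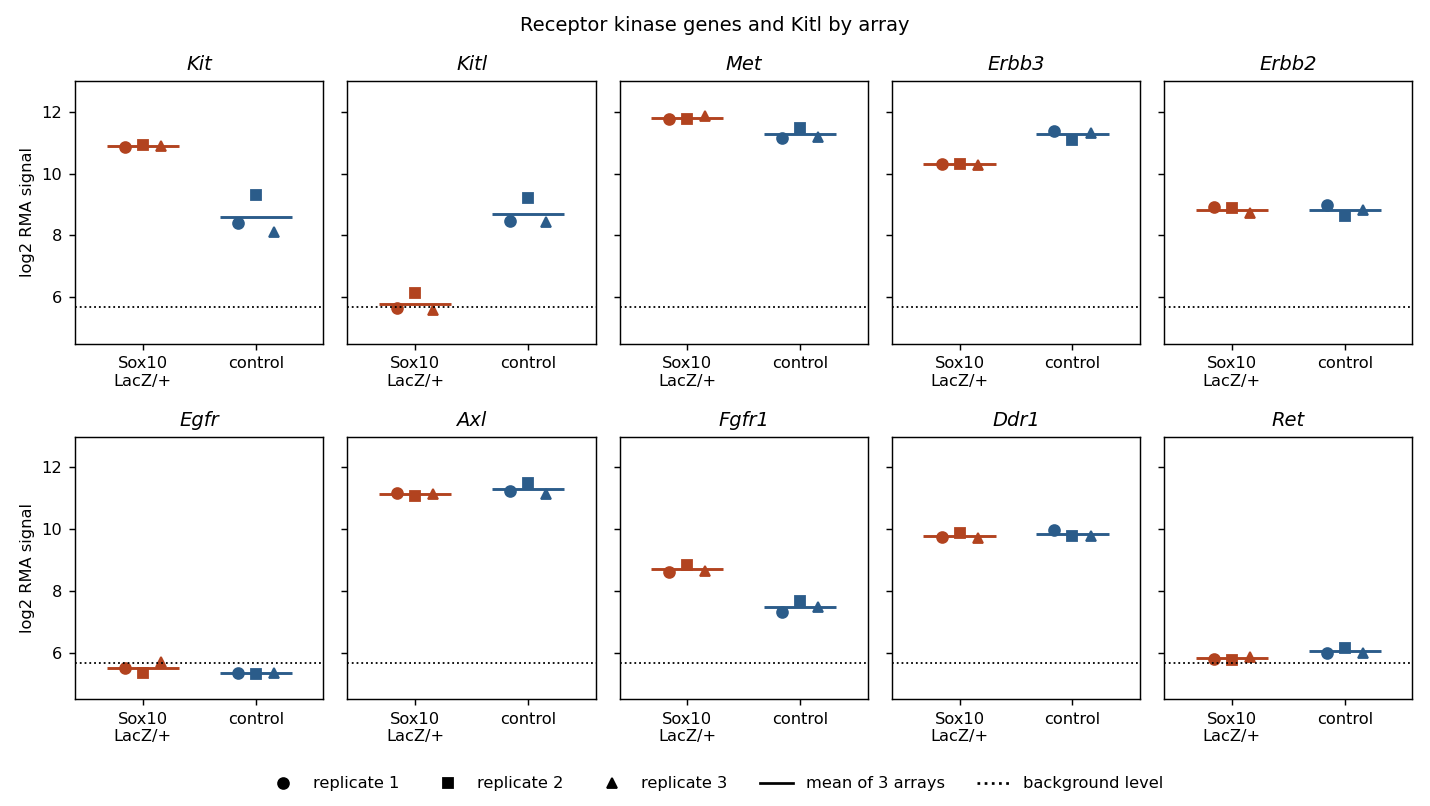
Log2 RMA signal of the 10 genes on each array, with the Sox10 LacZ/+ line left of the control line, a marker shape for each replicate number, a bar for the mean of 3 arrays and a dotted line at the background level of 5.67. The heterozygous arrays of Kit lie above 10.8 and the control arrays below 9.4, while Kitl lies near the background level in the heterozygous line.

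Kit, the receptor for stem cell factor (Entrez 16590; chromosome 5, 75574987 to 75656722 in GRCm38.p6), had a log2 signal of 10.87, 10.93 and 10.89 in heterozygous replicates 1 to 3, against 8.41, 9.32 and 8.10 in control replicates 1 to 3. The heterozygous arrays spanned 0.06 and the control arrays 1.22, with control replicate 2 the highest of its line, and a gap of 1.55 separated the lines. The means were 10.90 ± 0.03 in the heterozygous and 8.61 ± 0.63 in the control line (SD, n = 3 each). The log2 difference was 2.29 (SE 0.27, 95% confidence interval 1.66 to 2.91, adjusted p 0.00092), or 4.88-fold. Mast cells are the other skin cells known for high Kit, and 7 of 7 mast cell markers were at background in both lines. Their mean log2 level over the list was 3.73 to 3.84 in heterozygous and 3.74 to 3.86 in control arrays. The part of other cells in the Kit difference was not tested.

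Kitl, which encodes stem cell factor, the ligand of KIT (Entrez 17311; chromosome 10, 100015615 to 100100416), ran the other way. Its log2 signal was 5.64, 6.14 and 5.57 in heterozygous replicates 1 to 3, against 8.47, 9.21 and 8.44 in control replicates 1 to 3. All 3 heterozygous arrays were lower than every control array, with a gap of 2.30, and 2 of them lay under the background level. Kitl averaged 5.78 ± 0.31 in the heterozygous and 8.71 ± 0.44 in the control line (SD, n = 3 each), a log2 difference of −2.92 (SE 0.23, 95% confidence interval −3.46 to −2.39, adjusted p 9.77e-05). This was 7.59-fold lower, a size that depends on the background of the array. Skin keratinocytes and fibroblasts are known sources of stem cell factor. Of 7 measured keratinocyte markers 0 passed by limma and 4 were at background in both lines, and their mean log2 level was 5.77 to 5.87 in heterozygous and 5.68 to 5.88 in control arrays. In the control line, where Kitl was high, fibroblast markers averaged 5.75 to 5.77, against 6.86 to 6.92 in the heterozygous line. Of these 11 markers 8 did not pass and 3 were higher in the heterozygous line, chiefly Dcn (5.92) and Pdgfrb (4.08). The share that passed was 27.3%, beside 13.4% of all genes. The part of other cells in the Kitl difference was not tested.

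The promoters of Kit and Kitl are printed because these genes differed most within the group and in opposite directions while the altered gene, Sox10, encodes a transcription factor. Each window comes from RefSeq on GRCm38.p6 and is written 5′ to 3′ on the gene's strand. It runs from 250 bases before to 50 after an annotated start, which need not be the end of the gene span. The printed Kit window is placed on the first base of the gene span given above, and that of Kitl on a start inside its span. Capitals mark matches on either strand to ACAAAG or ACAATG (letters of the SOX motif), CACGTG or CATGTG (E-boxes, the class bound by MITF), TGAGTCA (AP-1) and GGGCGG (GC box, which can overlap itself). Kit has 2 windows, of which the first, at chr5:75574737-75575036, is printed. The second, at chr5:75574741-75575040, had the same count of each motif. The window of Kitl lies at chr10:100015571-100015870, and all are on the plus strand.
Kit: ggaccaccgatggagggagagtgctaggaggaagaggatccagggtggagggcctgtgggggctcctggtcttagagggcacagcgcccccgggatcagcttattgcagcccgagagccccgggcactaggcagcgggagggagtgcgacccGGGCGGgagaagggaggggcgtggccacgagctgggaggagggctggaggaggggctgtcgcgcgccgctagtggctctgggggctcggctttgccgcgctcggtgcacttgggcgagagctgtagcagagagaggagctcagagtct
Kitl: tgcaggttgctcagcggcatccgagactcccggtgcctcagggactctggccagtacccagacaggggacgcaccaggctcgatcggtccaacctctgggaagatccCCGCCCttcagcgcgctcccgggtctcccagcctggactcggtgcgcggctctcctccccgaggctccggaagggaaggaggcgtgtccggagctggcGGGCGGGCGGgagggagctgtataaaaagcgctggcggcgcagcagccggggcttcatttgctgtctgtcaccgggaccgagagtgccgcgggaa
Both printed windows held the GC box, Kit 1 time and Kitl 3 times, and neither held any of the other 5 motifs. The GC box occurs in 35.7% of all 32851 windows of this length, ACAAAG in 18.7%, ACAATG in 12.6%, CACGTG in 7.15% and CATGTG in 14.2%. No match says only that these letters are not in this window.

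Among receptors with roles in migration and growth, Met, the receptor of hepatocyte growth factor (Entrez 17295; chromosome 6, 17463349 to 17573980), was modestly higher. It had 11.77, 11.79 and 11.86 on the log2 scale in heterozygous replicates 1 to 3, against 11.16, 11.47 and 11.19 in control replicates 1 to 3. The lines did not overlap, and control replicate 2 was the control array nearest to the heterozygous ones. The log2 difference was 0.53 (SE 0.10, 95% confidence interval 0.30 to 0.76, adjusted p 0.00974), or 1.45-fold. Met lost its call when heterozygous replicate 3 was left out (0.51, adjusted p 0.0501; 0.000805 to 0.481 over all alternatives).

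Met lies on chromosome 6, whose genes were shifted as a whole. The median log2 difference over 710 brighter genes of that chromosome was 0.24, while the medians of the 18 other autosomes lay between −0.03 and 0.03 (brighter genes have a mean at or over the 40th percentile of probe sets). Of these chromosome 6 genes 33.7% rose, beside 4.94% (chromosome 17) to 12.9% (chromosome 16) of the brighter genes on the other autosomes. A difference at least as large as that of Met was found in 17.75% of the brighter chromosome 6 genes and in 5.71% of brighter genes elsewhere. With each array's median deviation of chromosome 6 removed, Met differed by 0.30 (adjusted p 0.04), and with genes centred on their chromosome's median level it differed by 0.11 and did not pass (adjusted p 0.481). The part of the chromosome in Met's difference was not tested further.

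The promoter of Met is printed because it was the window among the members with an E-box CACGTG, and it also held the AP-1 letters TGAGTCA, the element known from phorbol ester response. It lies at chr6:17463707-17464006 on the plus strand, with capitals as above. The whole window, and so each match in it, lies inside the gene span given for Met, downstream of its first base.
Met: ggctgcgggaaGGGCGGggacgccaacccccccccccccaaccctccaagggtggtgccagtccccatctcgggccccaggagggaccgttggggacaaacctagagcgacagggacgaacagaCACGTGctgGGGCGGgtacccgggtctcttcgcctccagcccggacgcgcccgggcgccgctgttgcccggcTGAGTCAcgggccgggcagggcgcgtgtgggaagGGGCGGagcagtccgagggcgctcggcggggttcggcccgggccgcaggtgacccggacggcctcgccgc
CACGTG and TGAGTCA occurred 1 time each and the GC box 3 times. TGAGTCA was found in 5.2% of all windows, and among the members also in 1 of the 4 windows of Ddr1. Windows were given for 7 of the 10 members, not for Erbb3, Fgfr1 and Ret, and the SOX letters ACAAAG were found in 1 window, the second of Ddr1, and ACAATG in 0.

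Erbb3, the neuregulin receptor that lacks strong kinase activity of its own (Entrez 13867; chromosome 10, 128567523 to 128589635), was lower in the heterozygous line. Its log2 signal was 10.33, 10.31 and 10.30 in heterozygous replicates 1 to 3, against 11.39, 11.10 and 11.33 in control replicates 1 to 3. The lines were 0.77 apart at their nearest arrays, and the heterozygous arrays spanned 0.03. Erbb3 averaged 10.31 ± 0.02 in the heterozygous and 11.28 ± 0.15 in the control line (SD, n = 3 each), a log2 difference of −0.96 (SE 0.09, 95% confidence interval −1.18 to −0.75, adjusted p 0.000272), or 1.95-fold lower.

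Erbb2, its signalling partner (Entrez 13866; chromosome 11, 98412484 to 98437716), did not pass. It had 8.91, 8.90 and 8.71 in heterozygous replicates 1 to 3, against 8.99, 8.64 and 8.82 in control replicates 1 to 3, and the lines overlapped. The log2 difference of 0.03 had a 95% confidence interval of −0.22 to 0.27 (adjusted p 0.921), and its sign changed between alternatives. Egfr, the receptor of epidermal growth factor (Entrez 13649; chromosome 11, 16752203 to 16913907), was at background in both lines. It averaged 5.51 ± 0.17 in the heterozygous and 5.33 ± 0.01 in the control line (SD, n = 3 each), and the lines lay 0.002 apart. Egfr differed by 0.18 (95% confidence interval −0.05 to 0.40, adjusted p 0.322). The remaining family member, Erbb4, was at background too, at 3.89 in the heterozygous and 4.03 in the control line.

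Fgfr1, a receptor of fibroblast growth factors (Entrez 14182; chromosome 8, 25518759 to 25575718), was higher. Its log2 signal was 8.63, 8.86 and 8.66 in heterozygous replicates 1 to 3, against 7.31, 7.68 and 7.48 in control replicates 1 to 3. All heterozygous arrays lay at least 0.96 above the control arrays. The log2 difference was 1.23 (SE 0.11, 95% confidence interval 0.97 to 1.49, adjusted p 0.000228), or 2.34-fold.

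Axl, the receptor of GAS6 (Entrez 26362; chromosome 7, 25756500 to 25788924), had 11.17, 11.09 and 11.15 in heterozygous replicates 1 to 3, against 11.25, 11.51 and 11.13 in control replicates 1 to 3. The lines overlapped, and the log2 difference of −0.16 did not pass (95% confidence interval −0.40 to 0.08, adjusted p 0.421). Ddr1, a collagen receptor (Entrez 12305; chromosome 17, 35681567 to 35704741), likewise overlapped, at 9.79 ± 0.09 in the heterozygous and 9.85 ± 0.12 in the control line (SD, n = 3 each). Its difference of −0.06 (95% confidence interval −0.27 to 0.15, adjusted p 0.765) came from the brighter of its probe sets, and the dimmer one differed by 0.05.

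Ret, the receptor of the glial cell line-derived neurotrophic factor family (Entrez 19713; chromosome 6, 118151748 to 118197744), was close to background. It had 5.81, 5.78 and 5.87 in heterozygous replicates 1 to 3, against 6.00, 6.15 and 6.01 in control replicates 1 to 3. Every heterozygous array was lower, by at least 0.13, and the log2 difference of −0.23 (95% confidence interval −0.41 to −0.05) did not pass (adjusted p 0.0966). Relative to its chromosome the difference was larger: it was −0.46 with the median deviation of chromosome 6 removed (adjusted p 0.00322), and −0.66 with genes centred on their chromosome's median level (adjusted p 0.000589).

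**Figure D2:**
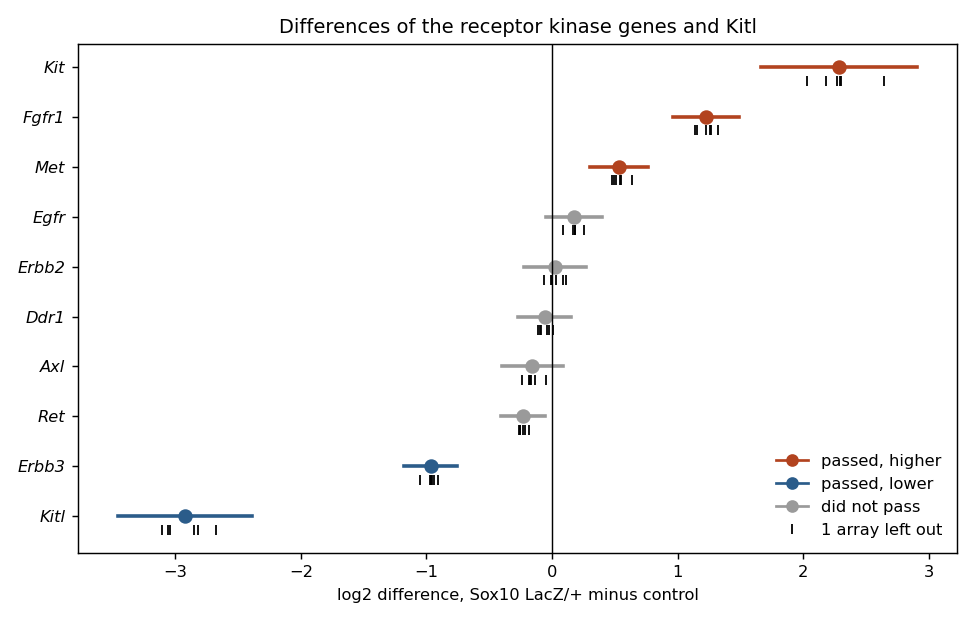
Log2 difference of each gene, Sox10 LacZ/+ minus control, with its 95% confidence interval, and below it a tick for each of the 6 fits with 1 array left out. Kit, Fgfr1 and Met lie right of 0 and Kitl and Erbb3 left of it in every fit, while the ticks of Erbb2 and Ddr1 fall on both sides.

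Control replicate 2 departed from the other control arrays toward the heterozygous line in 4 of the 5 members that passed and away from it in Kitl. Its largest departure in the group was that of Kit, 1.07 above the mean of the other control arrays. Without it the differences were 2.64 for Kit, −2.67 for Kitl, 1.32 for Fgfr1, 0.63 for Met and −1.05 for Erbb3, and each passed.

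The genes whose profile over the 6 arrays was most like that of Kit were Slc24a4, Pgf and Gpm6b, out of 13483 brighter named genes. Likeness was the root mean square difference between log2 values centred on each gene's mean, 0.04 for Slc24a4, 0.16 for Pgf and 0.18 for Gpm6b. Slc24a4, a sodium, potassium and calcium exchanger gene, had 10.96, 10.99 and 11.02 in heterozygous replicates 1 to 3, against 8.42, 9.35 and 8.11 in control replicates 1 to 3. Its likeness to Kit, in the high control replicate 2 as in the tight heterozygous arrays, follows from its selection on these same values. Pgf, which encodes placental growth factor, differed by 2.42 and Gpm6b, a membrane glycoprotein gene, by 2.37.

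The rest of the receptor kinase family was read beside the group. Of 49 other receptor kinase genes 47 were measured, and 22 of these were at background in both lines. In the heterozygous line 8 rose and 2 fell (21.3%, beside 13.4% of all genes), with a median difference of 0.01, against a median of 0.001 over all genes. The rises were led by Pdgfrb, a platelet-derived growth factor receptor and a fibroblast and pericyte marker, which had 10.32, 10.40 and 10.32 in heterozygous replicates 1 to 3, against 5.84, 6.91 and 6.06 in control replicates 1 to 3. Its log2 difference was 4.08 (SE 0.24, adjusted p 1.83e-05).

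Epha3, an ephrin receptor gene, rose by 2.64 (SE 0.09, adjusted p 6.18e-07), and its control mean of 5.18 was at background. Ror1, a receptor of the Wnt ligand WNT5A, rose by 2.18 (SE 0.10, adjusted p 4.69e-06). Fgfr2, a relative of Fgfr1, had 9.72, 9.76 and 9.83 in heterozygous replicates 1 to 3, against 6.87, 8.77 and 6.10 in control replicates 1 to 3. The control arrays of Fgfr2 spread widely and the heterozygous ones did not. Its log2 difference of 2.52 (SE 0.57, adjusted p 0.0232) held only with control replicate 2 absent among the 6 fits with an array removed (3.28 there, adjusted p 4.77e-05, against 0.0551 to 0.0958 in the other fits). The 2 that fell were named after their values were seen: Styk1 on chromosome 6 (−0.72, adjusted p 0.00922) and Tyro3, a relative of Axl (−0.37, adjusted p 0.0466). Without control replicate 2, 10 rose and 2 fell, and with any other array left out 7 rose and 1 or 2 fell. The number that fell was 1 with each array centred on its median, 4 with array weights, 5 with genes centred on their chromosome's median level and 4 with the chromosome's median deviation removed. Over all 56 receptor kinases measured, 7 passed and were at least 2-fold higher, Kit, Fgfr1 and Fgfr2 among them, and 0 were at least 2-fold lower. Of all genes, dim ones included, 3.53% passed with at least a 2-fold difference in either direction.

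**Figure D3:**
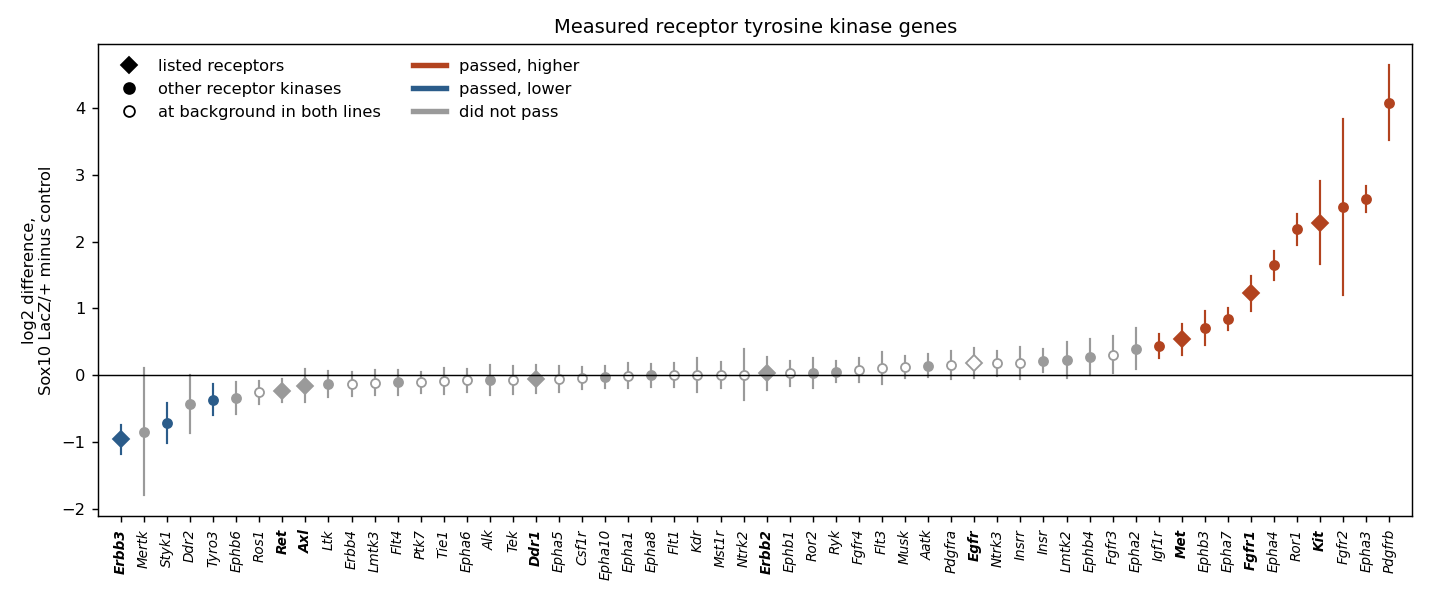
Log2 difference, Sox10 LacZ/+ minus control, of the 56 measured receptor tyrosine kinase genes in order of size, with 95% confidence intervals. Diamonds and bold names are the 9 listed receptors, open symbols are at background in both lines, and colour gives the call. Erbb3 is at the low end, and Kit and Fgfr1 are among the 7 genes that passed at 2-fold or more at the high end.

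Most ligand genes of these receptors did not pass. Of 25 listed besides Kitl, 24 were measured, 3 rose, 2 fell and 19 did not pass (20.8% passed, beside 13.4% of all genes), with a median difference of −0.03. Nrg1, the neuregulin gene whose product binds ERBB3, had 8.49, 8.60 and 8.53 in heterozygous replicates 1 to 3, against 5.30, 5.46 and 5.19 in control replicates 1 to 3. All control arrays of Nrg1 were at background, and the log2 difference was 3.22 (SE 0.09, adjusted p 2.52e-07), while Erbb3 differed by −0.96.

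Fgf2, the basic fibroblast growth factor gene and a known melanocyte mitogen, rose by 0.69 (SE 0.12, adjusted p 0.00575). Artn, which encodes a ligand of the RET family, fell to 5.57 ± 0.14 in the heterozygous line, which was at background, against 6.79 ± 0.16 in the control line (SD, n = 3 each), a log2 difference of −1.22 (SE 0.11, adjusted p 0.000216). Gdnf, another RET ligand gene, differed by −0.58 (adjusted p 0.0362), with both lines at background, and no longer passed in 5 of the 6 fits with an array removed, the exception being control replicate 2 (adjusted p 0.000751 to 0.123 across alternatives). Hgf, the gene for the ligand of MET, was at background in both lines (3.97 in the heterozygous and 3.92 in the control line), and Gas6, the gene for the ligand of AXL, differed by −0.03 (adjusted p 0.961). Hgf and Gas6 were singled out as partners of members. Without control replicate 2, 4 ligand genes rose and 3 fell, and with any other array left out 2 rose and 1 fell.

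Of 17 coreceptors and modulators, 3 rose, 3 fell and 11 did not pass (35.3% passed, beside 13.4% of all genes), with a median of −0.01. The 13.4% covers all genes, dim ones included, while 16 of these 17 lay above background in at least 1 line. Lrig3, of a family of membrane proteins that bind receptor kinases, rose by 1.33 (SE 0.09, adjusted p 4.45e-05), and Errfi1, a feedback inhibitor of EGFR and other ERBB receptors, by 0.77 (SE 0.12, adjusted p 0.00403). The heparan sulfate proteoglycan gene Sdc3 fell by 0.93 (SE 0.07, adjusted p 6.64e-05). Gfra2, which encodes the coreceptor that presents neurturin to RET, fell by 0.84 (SE 0.11, adjusted p 0.00178) to 5.25 ± 0.19 in the heterozygous line, which was at background, against 6.08 ± 0.11 in the control line (SD, n = 3 each). Gfra4, a gene of the same coreceptor family as Gfra2, was named after its value was seen. It rose by 0.71 (SE 0.10, adjusted p 0.00241) and lay above background in both lines. Gfra1 and Gfra3 did not pass. Without control replicate 2, 3 genes of this list rose and 5 fell.

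Of 9 genes for proteases and inhibitors that process ligands or receptors, 1 rose, 2 fell and 6 did not pass (33.3% passed, beside 13.4% of all genes). In this list 8 lay above background in at least 1 line. Plau, the gene for urokinase, which can activate hepatocyte growth factor, had 9.94, 9.81 and 9.81 in heterozygous replicates 1 to 3, against 6.76, 6.25 and 6.31 in control replicates 1 to 3. Its log2 difference was 3.42 (SE 0.14, adjusted p 1.8e-06). St14, the gene for matriptase, another activator of that factor, fell by 1.01 (SE 0.14, adjusted p 0.00229) and was at background in the heterozygous line. Adam10, which encodes a sheddase, differed by −0.33 (adjusted p 0.0485) and likewise no longer passed in 5 of those 6 fits (adjusted p 0.0046 to 0.156 across alternatives). Without control replicate 2, 1 rose and 3 fell, and with any other array left out 1 rose and 1 fell.

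Downstream of the receptors, 34 of 38 listed adaptor and effector genes were measured, and 30 of these lay above background in at least 1 line. Of the 34, 6 rose, 6 fell and 22 did not pass (35.3% passed, beside 13.4% of all genes), with a median of −0.01. Pik3r3, a regulatory subunit gene of phosphoinositide 3-kinase, rose by 1.14 (SE 0.12, adjusted p 0.00055), while Pik3cb, a catalytic subunit gene, fell by 0.89 (SE 0.10, adjusted p 0.000889). Plcg2, a phospholipase gene, rose by 0.73 (SE 0.14, adjusted p 0.0101). Ptpn6, the gene for SHP-1, a phosphatase that dampens KIT signalling in blood cells, fell by 0.83 (SE 0.11, adjusted p 0.00201); it lies on chromosome 6 and differed by −1.26 with genes centred on their chromosome's median level. Without control replicate 2, 6 rose and 7 fell, and 3 fell without heterozygous replicate 2 or 3.

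**Figure D4:**
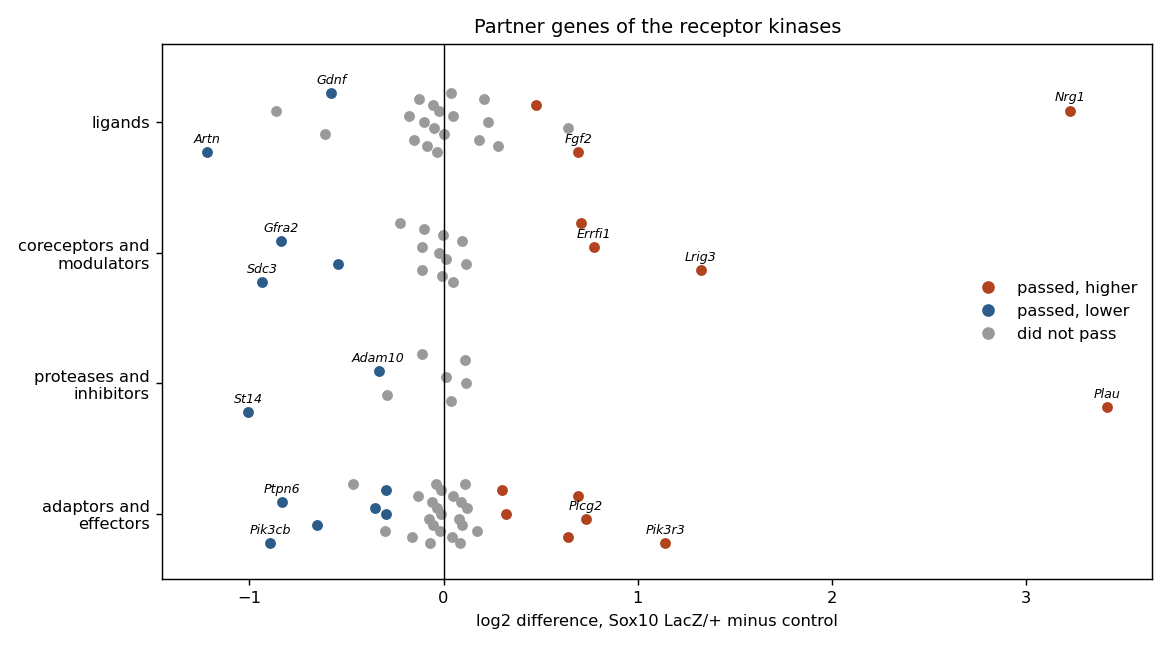
Log2 difference, Sox10 LacZ/+ minus control, of the measured ligand, coreceptor, protease and adaptor genes, 1 point for each gene in a row for each list, with points spread vertically for legibility. Nrg1 at 3.22 and Plau at 3.42 lie far to the right of all other points, and Artn at −1.22, at background in the heterozygous line, lies farthest to the left.

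Some genes listed as markers of other cells also differed between the lines, and their part in these results was not tested. Of the measured markers, 27.3% of the fibroblast, 50% of the Schwann cell, 25% of the vascular, 14.3% of the leukocyte and 50% of the melanocyte list passed. Over all genes, dim ones included, 13.4% passed, and the leukocyte share was close to this. Of 11 fibroblast markers 3 rose, Dcn (5.92, control line at background), Pdgfrb (4.08) and Col1a2 (1.24, or 0.82 with chromosome centring and 1.87 with its probe sets averaged), and 8 did not pass, with Lum, Fap, Dpt and Pdgfra at background in both lines. Of 6 measured Schwann cell markers 3 fell, Ngfr (−3.61), S100b (−2.70, heterozygous line at background) and Fabp7 (−2.10, heterozygous line at background, which passed in 1 of the 6 fits with an array removed, that without control replicate 2; adjusted p 1.58e-06 to 0.129 across alternatives), and their mean log2 level was 5.94 to 6.08 in heterozygous and 7.23 to 7.88 in control arrays. Of 8 vascular markers 2 rose, both with the control line at background: Cnn1 (0.44, adjusted p 0.0528 without heterozygous replicate 1) and Vwf (0.38). Vwf had an adjusted p of 0.0683 to 0.0923 without heterozygous replicate 2 or 3 or control replicate 1. It lies on chromosome 6 and differed by 0.15 with the chromosome's median deviation removed (adjusted p 0.319). With genes centred on their chromosome's median level Vwf differed by −0.0466 (adjusted p 0.788). Of 7 leukocyte markers 1 rose, Cd68 (1.32). Of these 7 leukocyte markers 5, Ptprc among them, were at background in both lines. Melanocyte markers counted 2 higher and 3 lower of 10, with Tyr (−2.10), Oca2 (−0.88) and Dct (−0.68) lower and Trpm1 (1.14, control line at background) higher, beside Mitf on chromosome 6, chosen once its value was known. Mitf differed by 0.67 (adjusted p 0.000439), by 0.44 with the chromosome's median deviation removed (adjusted p 0.00426), and by 0.25, which did not pass, with genes centred on their chromosome's median level (adjusted p 0.0565). Their mean log2 level was 11.1 to 11.2 in heterozygous and 11.3 to 11.5 in control arrays. Without control replicate 2, 4 melanocyte and 4 fibroblast markers rose, 5 Schwann cell markers fell, 1 keratinocyte marker rose and 1 leukocyte marker fell, and without control replicate 3, 1 mast cell marker fell. In a bulk sample, fewer cells of a type and less RNA per cell cannot be told apart.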

How the data were processed

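RNA for the 6 arrays was labelled with biotin and hybridised to 1-colour Affymetrix arrays. The authors made the deposited log2 values with RMA, per the submitters' processing notes, which also name Partek. RMA subtracts background, brings arrays to a common distribution and summarises each probe set. Of versions, settings and the authors' own test, the sources used here say nothing. There were 41345 probe sets, and 0 pairs of arrays were identical; 23521 probe sets carried 1 symbol and 1814 several, giving 22180 genes. Names and positions came from the platform annotation and RefSeq on GRCm38.p6 through Entrez identifiers.

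Differences, heterozygous minus control, were fitted across all genes by limma 3.58.1 under R 4.3.3 (eBayes, 2-sided, 4 residual and 7.87 total degrees of freedom), without rescaling or a filter. The number of arrays limits the precision. No replicate block was used: deviations of arrays with the same number correlated at 0.007, 0.016 and −0.004 across genes. Named besides the members were Sox10 and Cdkn2a, up to 4 passing genes of each list by size of difference (else the 2 brightest) and the 3 genes nearest to Kit. The members and lists were chosen with earlier results of these data known, and so were the promoter motifs. The fit was tested on simulated data. Alternatives were other scalings, filters, probe set rules, variance moderation, array weights, a replicate block and single arrays left out.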

Additional observations from a re-analysis of the deposited data

How the results depend on the processing

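Kit, Kitl, Erbb3 and Fgfr1 kept their direction and passed in all 17 alternatives, with differences of 2.03 to 2.64, −3.10 to −2.67, −1.10 to −0.91 and 1.14 to 1.32. Met passed in 15 of 17: it did not pass without heterozygous replicate 3 (0.48 to 0.63 over the 6 fits with 1 array left out) or with genes centred on their chromosome's median level (0.11), whereas Ret passed with that centring (−0.66) and with the chromosome's median deviation removed (−0.46), an alternative chosen after the data were seen. Erbb2 changed sign under quantile normalization (−0.0052), array weights (−0.0596) and chromosome centring (−0.0221), and ranged from −0.0627 to 0.110 with 1 array left out; Ddr1 ranged from −0.111 to 0.0106. Among marker genes, signs changed for Tpsab1 under array weights (0.029) and chromosome centring (0.0139) and over −0.169 to 0.0879 with 1 array left out, for Sfn over −0.212 to 0.0865, and for Vwf under chromosome centring (−0.0466). Over all genes, 979 to 2308 were higher and 779 to 1914 lower with 1 array left out (the high ends without control replicate 2, the low ends without a heterozygous array), and 2196 were lower with chromosome centring, against 1654 higher and 1313 lower; the members counted 2 to 3 higher and 2 lower with 1 array left out. With replicate number as a block, 1381 genes were higher and 1131 lower, and the members kept all their calls, with Kit at 2.29; among other named genes Adam10 lost its call (adjusted p 0.0717). Among the lists, lower counts moved to 1 for the proteases under quantile normalization, every probe set tested and the block, to 1 for the ligands with dim genes left out, and to 5 for Schwann cell markers under array weights. The cause of these changes was not tested. Signal near background limits Egfr, Ret and Kitl in the heterozygous line.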

Other observations

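Eph receptors, which bind membrane-held ephrins and guide cell migration, were grouped after their values were seen. Of 13 measured, 4 rose in the heterozygous line, 0 fell and 9 did not pass (over all genes 7.46% were higher and 5.92% lower), 4 of the 13 being at background in both lines. Besides Epha3, the rises were those of Epha4 (7.26 ± 0.09 in the heterozygous and 5.61 ± 0.13 in the control line; SD, n = 3 each), Epha7 (6.44 ± 0.04 in the heterozygous and 5.60 ± 0.06 in the control line) and Ephb3 (6.93 ± 0.08 in the heterozygous and 6.23 ± 0.20 in the control line). Their log2 differences were 1.64 (adjusted p 1.31e-05), 0.84 (adjusted p 0.000149) and 0.71 (adjusted p 0.00393). The control means of Epha3, Epha4 and Epha7 lay under the background level. Igf1r, a receptor of insulin-like growth factors, also rose, by 0.44 (SE 0.08, adjusted p 0.00728).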
